A study of Mus musculus with 2 samples.

Results

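The miR-135 family in the mouse is made from 3 hairpin genes, Mir135a-1, Mir135a-2 and Mir135b, and all 3 have a row among the 1973 gene rows of each table. Their rows were found by gene symbol, through the Ensembl identifiers. The measurement was microRNA sequencing of RNA below 30 nt from the midbrain, the part of the embryonic brain between forebrain and hindbrain, of B6NCrl mouse embryos of day 13.5. Embryos of both sexes were pooled, and the labels name no altered allele and no treatment. The series holds 1 group of 2 biological replicates with 1 library each, and both carry the same donor record, so no comparison between conditions can be made. The labels do not give how many embryos went into each pool or how independent the pools were, so any difference given here measures the spread between these libraries, part of which may be technical.

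A microRNA gene is transcribed as a longer RNA that folds into a hairpin, which the nucleases Drosha and Dicer trim to a short duplex. One strand of the duplex, from the 5p or the 3p arm, is loaded into an Argonaute protein and finds its messenger RNA targets mainly through the seed, the stretch of bases 2 to 8. In the midbrain, Mir135a-2 is known as a locus that acts with the transcription factor Lmx1b and restrains Wnt signalling, a pathway known to influence the size of the dopaminergic progenitor pool. In other systems, miR-135a is known from serotonergic neurons, where it targets the serotonin transporter, and miR-135b from early neural differentiation, where it restrains TGF-beta and BMP signalling.

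The mature arms listed for these loci show which of them a short read can tell apart. RefSeq (GRCm38.p6) lists hairpins for 3 of the 3 loci and 5 mature entries with 4 different sequences. They are printed 5′ to 3′ with the seed in capitals, to show that Mir135a-1 and Mir135a-2 make the same 5p arm and that the 3p arms differ.
miR-135a-5p, from Mir135a-1 and Mir135a-2: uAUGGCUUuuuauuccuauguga
miR-135a-1-3p, from Mir135a-1: uAUAGGGAuuggagccguggcg
miR-135a-2-3p, from Mir135a-2: uGUAGGGAuggaagccaugaa
miR-135b-3p, from Mir135b: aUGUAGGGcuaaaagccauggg
The 3 arms of the 3p side have 3 different seeds. No other locus of the RefSeq table has a mature arm with the seed of any of these 4 sequences.

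Windows of 30 bases around the 5p arm were compared next, because the bases at and beside this arm decide whether a read is assigned to a locus. Capitals mark the 23 bases of miR-135a-5p or, in Mir135b, the stretch of its hairpin that matches it best, with 3 bases before and 4 after in lower case.
Mir135a-1, chr9:106154137-106154166, plus strand: cucUAUGGCUUUUUAUUCCUAUGUGAuucu
Mir135a-2, chr10:92072137-92072166, minus strand: cuuUAUGGCUUUUUAUUCCUAUGUGAucgu
Mir135b, chr1:132198100-132198129, plus strand: gccUAUGGCUUUUCAUUCCUAUGUGAuugc
The stretch in Mir135b matched miR-135a-5p at 22 of 23 bases, with the substitution U11C counted from the 5′ end of miR-135a-5p, and its bases 2 to 8 were the same seed. Mir135a-1 and Mir135a-2 shared an exact run of 24 bases, which holds the whole of miR-135a-5p and 1 base more. The longest run shared with Mir135b was 14 bases for Mir135a-1 and 13 for Mir135a-2. Of the 22-base windows of each hairpin, 3 of 69 in Mir135a-1 and 3 of 79 in Mir135a-2 occurred in another of 2202 annotated microRNA hairpins, in each case only the other Mir135a hairpin, and 0 of 76 did so in Mir135b. A read of exactly the mature miR-135a-5p therefore has more than 1 place of origin by sequence, whereas a read from a 3p arm, or one that reaches further into the flanks, does not among these hairpins.

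**Figure D1:**
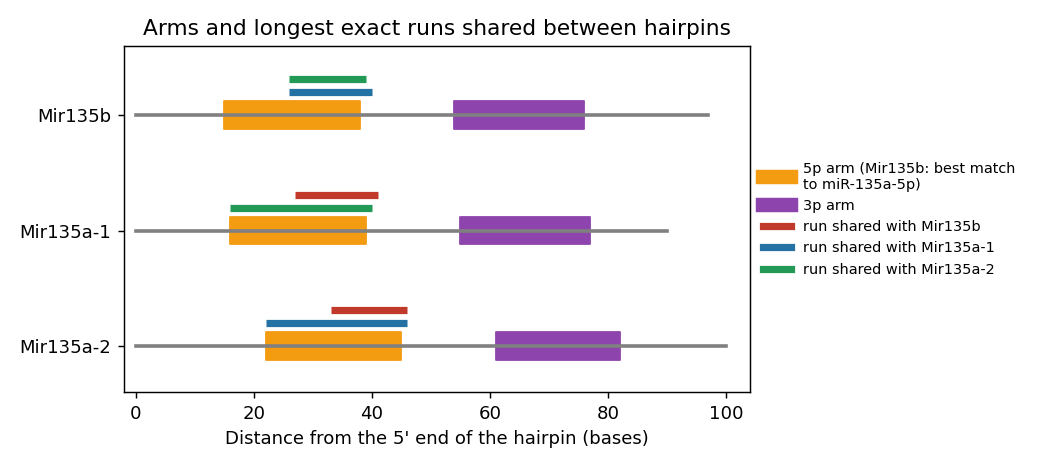
Map of the 3 hairpins with the distance from the 5′ end in bases on the horizontal axis: boxes are the 5p and 3p arms (for Mir135b the 5p box is the best match to miR-135a-5p), and thin bars are the longest exact runs shared by each pair. The run of 24 bases between the Mir135a hairpins spans the 5p box, while the runs of 14 and 13 bases shared with Mir135b start inside that box and reach just past its end.

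The hairpins of Mir135b and Mir135a-2 are given whole, because they stand at opposite ends of the family in level and in base composition. Capitals mark the 5p stretch and the 3p arm.
Mir135b: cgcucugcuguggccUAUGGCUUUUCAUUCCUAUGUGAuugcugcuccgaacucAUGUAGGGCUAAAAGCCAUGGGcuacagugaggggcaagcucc
Mir135a-2: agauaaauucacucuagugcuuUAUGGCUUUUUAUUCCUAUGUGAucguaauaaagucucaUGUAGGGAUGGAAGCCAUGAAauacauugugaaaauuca
The GC content was 53.6% in Mir135b, 46.7% in Mir135a-1 and 33.0% in Mir135a-2. The fold of lowest predicted energy was -48.7 kcal/mol for Mir135b, -43.5 kcal/mol for Mir135a-1 and -34.5 kcal/mol for Mir135a-2, in hairpins of 97, 90 and 100 bases. All 3 have 16 bases between the arms, and 20, 21 and 22 of the 23 bases of the 5p stretch were paired in these predicted folds. Among the 3p arms, an ungapped alignment matched 16 of 21 bases between Mir135a-2 and Mir135b, 15 of 21 between Mir135a-1 and Mir135a-2, and 14 of 21 between Mir135a-1 and Mir135b.

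The 3 loci lie on 3 chromosomes, each in an intron of another gene on the same strand (mm10). Mir135b (ENSMUSG00000065435.1) lies at chr1:132198088-132198184, in an intron of Lemd1, which encodes a LEM-domain protein, and of the overlapping gene AC124108.1. Mir135a-1 (ENSMUSG00000065407.1) lies at chr9:106154124-106154213, in an intron of the noncoding gene D030055H07Rik, and on the opposite strand this place is an untranslated part of an exon of Glyctk, which encodes glycerate kinase. Mir135a-2 (ENSMUSG00000065524.1) lies at chr10:92072086-92072185 on the minus strand, in an intron of the long noncoding RNA gene Rmst, known from midbrain and from neurogenesis. No read was counted on the opposite strand of any of the 3 loci in either library.

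The same-strand counts over all genes came to 5093743 for replicate 1 and 2935841 for replicate 2. Reads that map to several places were 34.4% and 37.7% of all reads. They stand in a row of their own and in no locus count, and their loci of origin are not recorded. Levels are given as CPM, the count at a locus per 1000000 same-strand counts of its library, and where a locus has no count its level may reach that of 3 counts, which is 0.589 CPM for the deeper replicate 1 and 1.02 CPM for replicate 2. Intervals are 95% exact Clopper-Pearson intervals and, with no molecular identifiers in the tables, cover counting error only. Of the marker lists for the tissue, the neural list summed to 18993 and 17675 CPM, of which Mir92b (9214 ± 1094 CPM) and Mir137 (7831 ± 2028 CPM) made up most. Of its other loci with a row, Mir128-1, Mir128-2 and Mir9-3 stood at 532, 364 and 377 CPM. Mir9-2 and the 3 Mir124a loci stood at 1.64 to 9.31 CPM. Reads of any of these loci that map to several places are left out, so a low locus count does not show that a microRNA was scarce. The Hox-cluster list of hindbrain and spinal cord summed to 637 and 723 CPM over 6 loci. The liver, muscle, red cell, leukocyte and epithelial lists each summed to between 10.6 and 224 CPM. Of the 4 muscle loci, 3 had 0 counts in both libraries, which does not show absence, since multimapping reads are in no locus count. The endothelial Mir126a stood at 16256 and 21170 CPM.

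Mir135b held the most counts of the 3 loci in both libraries. It held 58204 counts in replicate 1 and 31562 in replicate 2, which is 11427 CPM (11334 to 11519) and 10751 CPM (10633 to 10869), or 11089 ± 478 CPM (SD, n = 2). It was the 18th highest locus in each library. These are levels in bulk tissue, where fewer cells of a type and less RNA per cell cannot be told apart.

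Mir135a-1 held 3061 and 1590 counts, which is 601 CPM (580 to 623) in replicate 1 and 542 CPM (515 to 569) in replicate 2, with a mean of 571 ± 42.0 CPM (SD, n = 2). Its rank was 112 in replicate 1 and 117 in replicate 2. Mir135a-2, the locus tied to Lmx1b, held 1977 and 974 counts, which is 388 CPM (371 to 406) and 332 CPM (311 to 353), with a mean of 360 ± 39.9 CPM (SD, n = 2). Its rank was 144 and 147. The order Mir135b, Mir135a-1, Mir135a-2 was the same in both libraries, and the lower of the 2 values of each locus lay above the higher value of the next.

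**Figure D2:**
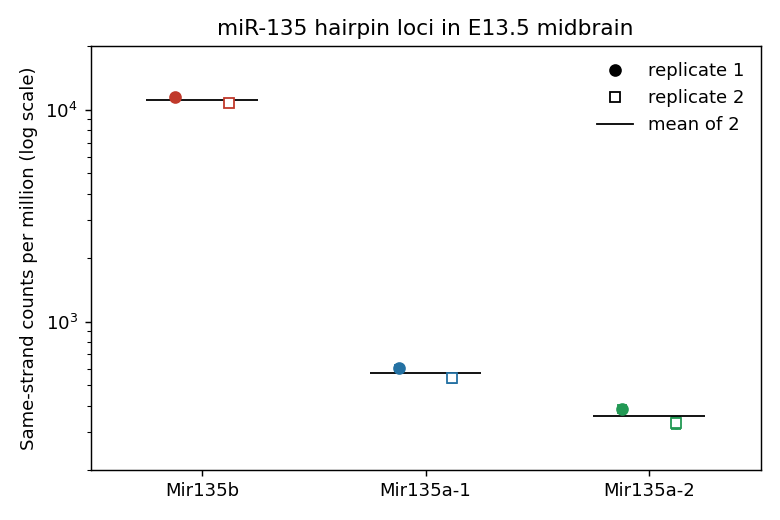
Same-strand CPM on a log axis for Mir135b, Mir135a-1 and Mir135a-2, with 1 point per library, the 95% exact Clopper-Pearson interval as a bar that is mostly hidden by the symbol, and a line at the mean of 2. Mir135b stands near 11089 CPM, Mir135a-1 near 571 CPM and Mir135a-2 near 360 CPM, with replicate 1 above replicate 2 at each.

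Mir135b held 92.0% of the counts at the 3 loci in replicate 1 (91.8 to 92.2) and 92.5% in replicate 2 (92.2 to 92.8). In CPM it stood 19.0 times as high as Mir135a-1 in replicate 1 and 19.9 times in replicate 2, and 29.4 and 32.4 times as high as Mir135a-2. Between the Mir135a loci, Mir135a-1 held 60.8% of their summed counts in replicate 1 (59.4 to 62.1) and 62.0% in replicate 2 (60.1 to 63.9), intervals that overlap. Per base of hairpin, Mir135b stood 17.6 and 18.4 times as high as Mir135a-1, and Mir135a-1 stood 1.72 and 1.81 times as high as Mir135a-2. With hairpins of 97, 90 and 100 bases, that scale could not change the order. The family summed to 12416 CPM in replicate 1 and 11624 CPM in replicate 2, or 1.20% ± 0.0560 of all counts (SD, n = 2).

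These ratios compare locus counts and not mature microRNAs. The 2 Mir135a loci together held 5038 counts in replicate 1 and 2564 in replicate 2, beside 3827354 and 2590773 multimapping reads, and how many of those were miR-135a-5p is not recorded. The counts do not separate the arms, so it is not known whether the counts at Mir135a-1 and Mir135a-2 came from the 3p arms or from 5p reads that reach into the flanks shown above.

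Among 466 loci with at least 10 counts over both libraries, 448 lay below Mir135b in mean CPM, 349 below Mir135a-1 and 320 below Mir135a-2. The loci of most like level, taken as the 2 above and the 2 below in mean CPM over the 2 libraries, were Mir20a, Mir106b, Mir30a and Mir322 for Mir135b. Mir106b, of a proliferation-associated cluster, stood at 12061 ± 529 CPM and was above Mir135b in both libraries, but by less than their summed SDs. Mir30a (9599 ± 610 CPM) and Mir322 (9564 ± 1020 CPM) were below it in both libraries by more than their summed SDs, and Mir20a (16879 ± 2464 CPM) was above it by more.

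Around the Mir135a loci the order was not resolved. Mir203 (573 ± 28.8 CPM) and Mir676 (572 ± 36.5 CPM) stood just above Mir135a-1, and Mir7-1 (563 ± 182 CPM) and Mir320 (537 ± 28.3 CPM) just below, all closer to it than their summed SDs. Mir203, Mir676 and Mir7-1 changed side of Mir135a-1 between the libraries. Mir339 (364 ± 7.02 CPM), Mir128-2 (364 ± 32.3 CPM), Mir3071 (358 ± 36.2 CPM) and Mir665 (343 ± 75.9 CPM) stood around Mir135a-2 in the same way, and each changed side of it between the libraries.

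**Figure D3:**
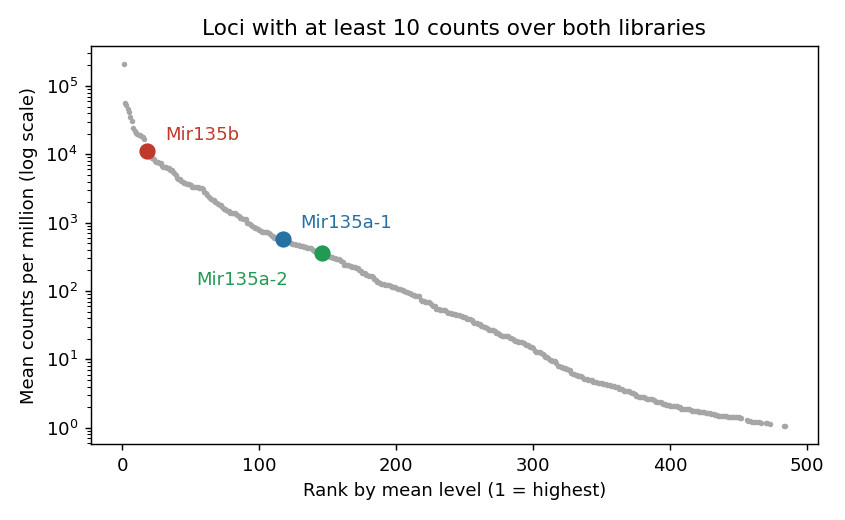
Mean CPM on a log axis against rank for the 466 loci with at least 10 counts over both libraries, with the 3 miR-135 loci coloured. Mir135b stands at rank 18 in the steep upper part of the curve, and Mir135a-1 and Mir135a-2 stand at ranks 117 and 146.

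All 3 loci had a higher CPM in replicate 1 than in replicate 2, and 1 of the 3 passed the test between the libraries. At each locus the counts of the libraries were compared by an exact binomial test, two-sided and conditional on their sum, with library sizes scaled by TMM (the trimmed mean of M-values), Benjamini-Hochberg adjustment over all 466 loci and a call at an adjusted p below 0.05. It compares the 2 libraries and takes in no spread between animals. It called 38.0% of all loci tested, with replicate 1 higher at 18.7% and replicate 2 higher at 19.3%. With a minimum of 50 counts it called 173 of 331 loci, so calls were more frequent among loci with more counts. All 3 miR-135 loci are well counted, so neither share is a background for loci of their level. Whether 1 call among 3 is usual at that level was not tested.

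Mir135a-2 passed, with a log2 ratio of replicate 1 to replicate 2 of 0.16 (95% interval 0.048 to 0.27), a 1.12-fold difference with an adjusted p of 0.0145 by the exact binomial test. Mir135a-1 had a log2 ratio of 0.08 (-0.0047 to 0.17) with an adjusted p of 0.140 by the exact binomial test. Mir135b had a log2 ratio of 0.02 (0.0014 to 0.041) with an adjusted p of 0.0850 by the exact binomial test. The intervals are not adjusted for the number of loci tested, while the p-values are. The interval of Mir135b can therefore leave out equality without a call. The call at Mir135a-2 ended when replicate 1 was thinned to the depth of replicate 2 (log2 ratio 0.13, adjusted p = 0.0967 by the exact test). Thinning was 1 random draw, after which the filter (432 loci) and the TMM factors were computed anew. Mir135b passed with DESeq2 size factors (adjusted p = 0.0280), with no filter (8.0e-07) and with a minimum of 50 counts (0.0354), and its ratio turned to -0.0013 with thinning (0.956), all by the exact test. Mir135a-1 passed with no filter (0.0398), by the same exact test. Both loci also passed with total counts only, at log2 ratios of 0.09 and 0.15, so that 3 of the 3 loci were called higher in replicate 1. That scaling called 38.8% of all loci, with replicate 1 higher at 24.0% and replicate 2 higher at 14.8%, and the split of called loci moved from 49.2% higher in replicate 1 with TMM scaling to 61.9% with total counts only.

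The sizes of these ratios were ordinary or small among all loci with a mean of 100 CPM or more, a set that was not matched to the level of each member. Over the 205 loci whose mean reached 100 CPM, the median size of the log2 ratio was 0.15, and 192 lay within 1.5-fold. Of these loci, 13 had a smaller ratio in size than Mir135b, 51 a smaller one than Mir135a-1 and 52.2% a smaller one than Mir135a-2. Over all 466 loci tested, 18.7% were called higher in replicate 1 and 19.3% higher in replicate 2. Of 17 tested loci of the 7 marker lists of other cells or regions, 1 was called higher in replicate 1 and 5 were called higher in replicate 2, while 11 did not pass. The first was the red cell locus Mir451a (log2 ratio 0.37), and the 5 were the endothelial Mir126a (-0.45), the liver locus Mir122 (-1.30), the leukocyte locus Mir223 (-0.54), the epithelial Mir429 (-0.53) and the Hox-cluster locus Mir10a (-0.36). Their part in the difference at Mir135a-2, which was higher in replicate 1, was not tested.

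**Figure D4:**
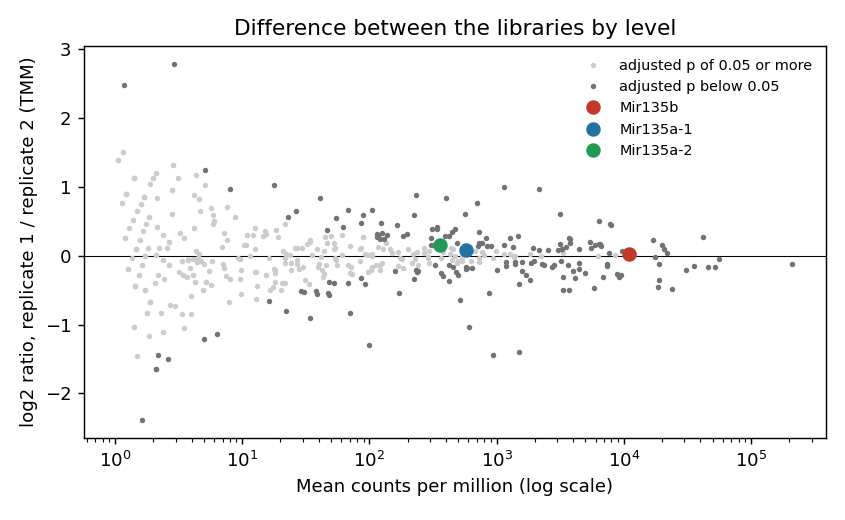
log2 ratio of replicate 1 to replicate 2 with TMM scaling against mean CPM on a log axis for 466 loci, with loci called by the exact test in dark grey, others in light grey, and the 3 miR-135 loci coloured. The 3 loci lie between 0.02 and 0.16, inside the cloud of loci of like level, and Mir135b is the nearest of the 3 to 0.

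The neighbouring microRNA genes of each locus had levels of their own. Mirlet7g, of the let-7 family of developmental timing regulators, is the nearest microRNA gene with a row to Mir135a-1, 24626 bases away on the same strand and within Wdr82. It stood at 44034 and 47053 CPM, against 601 and 542 CPM for Mir135a-1, with a log2 ratio between the libraries of -0.16 where that of Mir135a-1 was 0.08. Mir1251 lies 64954 bases from Mir135a-2 within the same host gene, Rmst, and stood at 448 and 505 CPM against 388 and 332 CPM. Mir1251 was the higher of the pair in both libraries. Its log2 ratio was -0.24, higher in replicate 2 (adjusted p = 3.8e-06 by the exact binomial test), whereas Mir135a-2 was higher in replicate 1. The counts at both Mir135a loci leave out reads that map to several places, so these orders hold for locus counts only. The nearest microRNA gene to Mir135b with a row, Gm24273, lies 699285 bases away and had 0 counts in both libraries, below the limits of 0.589 and 1.02 CPM.

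For comparison, 5 other families were picked in which, as in miR-135, a pair of loci shares an identical mature arm while another locus of the same seed has arms of its own. They are not the full set of such families. The locus outside the pair held 92.0% and 92.5% of the counts in the miR-135 family. That share was 99.8% and 99.9% for Mir26b in the miR-26 family, 97.5% and 98.4% for Mir107 in the family of Mir103-1, Mir103-2 and Mir107, and 99.2% and 99.0% for Mir29a and Mir29c in miR-29. It was 59.8% and 50.3% for Mir7b in miR-7 and 49.2% and 43.3% for Mir125a in miR-125. Among the families picked, the share in miR-135 thus lay between those of 3 families above it and 2 below it in both libraries. These are descriptions of locus counts, with no test.

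The 2 Mir135a loci summed to 989 CPM in replicate 1 and 873 CPM in replicate 2. The pair with an identical arm summed to 35.3 and 22.8 CPM in miR-26, 58.3 and 33.0 CPM for Mir103-1 and Mir103-2, and 1.96 and 2.38 CPM in miR-29. The pair in miR-7 summed to 1039 and 732 CPM and that in miR-125 to 4282 and 4389 CPM. Across the RefSeq table, 87 loci with a row have a mature arm that is identical at another locus, and 48 of them had at least 10 counts. Of these 48, which include both Mir135a loci, 38 lay below Mir135a-1 and 30 below Mir135a-2 in mean CPM, and their median was 144 CPM. Of 829 loci with a row and no such arm, 370 had at least 10 counts, and their median was 53.0 CPM. Without that minimum the median was 3.50 CPM for the 87 loci and 0.759 CPM for the 829. How many reads each class lost as multimapping is not recorded.

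**Figure D5:**
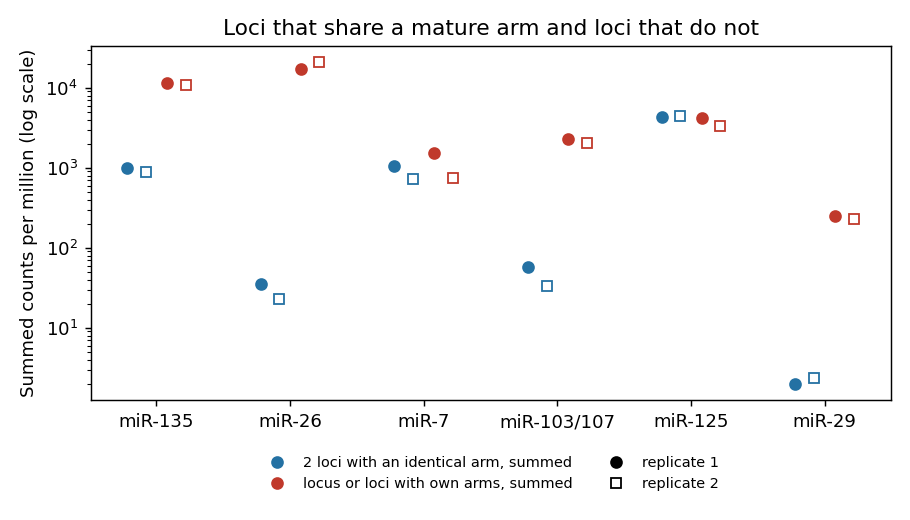
Summed CPM on a log axis for 6 families, with the pair of loci that share an identical mature arm in blue and the locus or loci with arms of their own in red, 1 symbol per library. In miR-135 the pair sums to 989 and 873 CPM and Mir135b stands at 11427 and 10751 CPM, a gap smaller than in miR-26, miR-29 and the family of Mir107 and larger than in miR-7 and miR-125.

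A list of 16 loci of microRNAs tied in published work to midbrain dopaminergic neurons gave the setting of the family. All 16 had a row, 11 exceeded 100 CPM in both libraries, and their median was 443 CPM. Mir135b stood above 15 of the 16, Mir135a-1 above 10 and Mir135a-2 above 6. The list was led by Mir126a (18713 ± 3474 CPM), which is also the endothelial marker, Mir181a-1 (6842 ± 827 CPM), Mir125b-1 (2349 ± 72.5 CPM) and Mir125b-2 (1986 ± 2.72 CPM). By RefSeq's sequences, 8 of the 16 loci have a mature arm identical at another locus, the pairs of Mir7, Mir218, Mir125b and Mir181a, and their locus counts are uncertain as those of the Mir135a loci are. Mir133b, known from work on the dopaminergic factor Pitx3, had 0 counts in replicate 1 and 1 in replicate 2, at or below the limit set by 3 counts.

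Of 15 loci of that list that were tested, 4 had more in replicate 1 and 7 had more in replicate 2 by the exact binomial test, while 4 did not pass. Over all loci tested 38.0% were called, and with a minimum of 50 counts 173 of 331. Calls are more frequent among loci with more counts, and most of the list is well counted, so neither share is one for loci of like level. The median log2 ratio of the 15 was -0.13, beside -0.0041 over all 466 loci and 0.02, 0.08 and 0.16 for the miR-135 loci. Mir7b (log2 ratio 1.00) and Mir7-1 (0.61), of the family that targets alpha-synuclein, were among those higher in replicate 1, and Mir204 (-0.54) and Mir181a-1 (-0.31) among those higher in replicate 2.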

How the data were processed

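The authors deposited 1 table of raw read counts per gene for each library, on mm10 with annotation M4, per the file headers and notes deposited with the samples. The aligner, trimming and read filters were not given in the sources used here. The tables have 3 unnamed count columns, and since the first equals the sum of the others in 3946 of 3946 gene rows over both tables, they were taken to be unstranded counts, counts on the gene's strand and counts on the opposite strand. The second of these was used, without the 4 summary rows.

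Names came from GENCODE M21 on the same assembly, by identifier without its version (1894 of 1973 matched, the 3 miR-135 loci with the same version). Sequences are RefSeq's (GRCm38.p6). miR-135b-5p has no entry there. Folds were predicted with RNAfold 2.7.2. TMM factors came from edgeR 4.0.16, which has no contrast to fit in 1 group. Ratios carry a pseudocount of 0.5 CPM. Tests used scipy 1.17.1 (Python 3.11.15, R 4.3.3) and were tried on simulated data. Results were recomputed with size factors from DESeq2 1.42.0, with total counts, other count minimums, unstranded counts, thinning, a pseudocount of 1 CPM, multimapping reads in the denominator and each replicate left out. Ratios per base of hairpin were added after seeing the data.

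The rule for named loci took the 3 members, the 2 loci on each side in level, loci sharing a seed, the nearest microRNA gene, 5 families with a shared arm, host genes and the 4 highest loci of the dopaminergic list. Other loci named with values, Mir133b, Mir7b, Mir204 and single loci of the marker lists, were picked from the lists after their values were seen. The members and lists were chosen with earlier results of these data known.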

Additional observations from a re-analysis of the deposited data

How the results depend on the processing

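With multimapping reads in the denominator, the mean level was 6118 CPM for Mir135b, 315 CPM for Mir135a-1, 199 CPM for Mir135a-2 and 6632 CPM for the family. Mir135b passed the exact binomial test with DESeq2 size factors (log2 ratio 0.026), total counts only (0.088), no filter (0.054) and a minimum of 50 counts (0.024), and its ratio turned to -0.0013 with thinning, where it did not pass. Mir135a-1 passed with total counts only (0.15) and no filter (0.12), and Mir135a-2 did not with thinning (0.13), which was 1 random draw. The adjusted p of Mir135a-2 by the exact test lay between 0.00022 and 0.0967 over these alternatives. Per base of hairpin, Mir135b stood 18.0 times as high as Mir135a-1 and Mir135a-1 1.77 times as high as Mir135a-2, in place of 19.4 and 1.59. In single libraries the levels ranged from 10751 to 11427 CPM for Mir135b, 542 to 601 for Mir135a-1, 332 to 388 for Mir135a-2 and 11624 to 12416 for the family, and the share of Mir135b from 92.0% to 92.5%. The cause of these changes was not tested. Of 55 alternatives, 41 kept direction and side of the threshold or moved by less than the spread. Some of the 41 could not do otherwise. With 2 libraries, leaving 1 out always moves a mean by less than its SD, and the pseudocount does not enter the test. The count of 41 is therefore no measure of how robust the results are. Calls between the libraries numbered 157 to 183, against 177. With 1 library left out no ratio exists. No paired analysis was possible because the series holds 1 group. Depth limits Mir135a-2 most, with 974 counts in replicate 2.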
